A study of Mus musculus with 12 samples.

Results

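Zfp36, Zfp36l1, Zfp36l2, Zc3h12a, Zc3h12d, Rc3h1 and Rc3h2 encode 7 RNA-binding proteins that shorten the life of mRNAs. They were chosen by name as a family of functions, but with earlier results of these data known. All 7 were among the 18193 genes tested. Zfp36, Zfp36l1 and Zfp36l2 encode zinc finger proteins that bind AU-rich elements in the untranslated tail of mRNAs and bring in the CCR4-NOT complex, which removes the poly(A) tail. Zc3h12a encodes Regnase-1, an endonuclease that cuts mRNAs at stem-loops, and Zc3h12d encodes its relative Regnase-4. Rc3h1 and Rc3h2 encode Roquin-1 and Roquin-2, which bind stem-loops and also bring in the deadenylase. In T cells these proteins are known for holding down cytokine and costimulatory receptor mRNAs, and Regnase-1 and the Roquins are themselves cleaved by the protease MALT1 after antigen receptor signalling.

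Expression was measured on 12 Affymetrix mouse arrays of CD8 T cells, 1 array per sample, from C57bl/c mice given as 6 to 8 weeks old. The Tim-3+ group held 4 samples of PD-1+ Tim-3+ 2B4+ tumour-infiltrating lymphocytes (TIL), and the Tim-3- group held 3 samples of PD-1+ Tim-3- 2B4- TIL. Both came from tumours that B16F10-GP melanoma cells had formed in the flank, sorted at day 17 to 19 after inoculation. The naive group held 5 samples of CD8 T cells from the spleen of naive mice. The labels call the Tim-3+ cells exhausted and the Tim-3- cells stem-like. Tumours were digested with collagenase and DNase for 1 hour at 37 °C before the sort, a step that the protocol describes for tumours. The labels do not say whether samples of a group came from separate mice, so p-values measure the spread between these samples, which may be technical. Both TIL groups were set against the same 5 naive arrays, so the comparisons with naive cells are not independent of each other.

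The values are log2 intensities of the probe set with the highest mean among those naming only the gene, and groups are given as mean ± SD with n = 4 Tim-3+, 3 Tim-3- and 5 naive arrays. A change is a log2 difference ± SE from 1 limma fit of the 3 groups, and it was called at a Benjamini-Hochberg adjusted p below 0.05 over all 18193 genes. The arrays' medians were 58.8 to 63.0 on the linear scale, and the number of arrays limits the precision. A group mean under 5.71, the value that 40% of the gene means do not reach, is treated here as possibly no more than background. No group mean of the 7 genes was that low. The genes of the 3 sorted receptors matched the labels. Havcr2, which encodes Tim-3, was at 11.66 ± 0.14 in Tim-3+ TIL, 7.08 ± 0.49 in Tim-3- TIL and 4.63 ± 0.22 in naive cells. In the same order, Pdcd1, which encodes PD-1, was at 11.77, 11.37 and 5.14. Cd244a, which encodes 2B4, was at 11.49, 4.89 and 4.19. Cd8a was at 12.85, 12.63 and 12.82. Cd8b1, at 11.76, 11.70 and 12.46, was lower than in naive cells in Tim-3+ TIL (-0.70, limma adjusted p = 2.11e-05) and in Tim-3- TIL (-0.76, limma adjusted p = 3.24e-05). Of 11 monocyte and macrophage markers 9 had means below 5.71 in every group, among them Lyz2, Adgre1 and Itgam. Lyz2 still read 6.97 on Tim-3+ replicate 4. The brightest of the 11, Cd68, was at 7.46 ± 0.28 in Tim-3+ TIL, 8.28 ± 0.12 in Tim-3- TIL and 6.83 ± 0.41 in naive cells, lower in Tim-3+ than in Tim-3- TIL (-0.82, limma adjusted p = 0.0203). The Cd68 call did not hold when replicate 1 of the Tim-3+ arrays, or replicate 2 or 3 of the Tim-3- arrays, was left out (limma adjusted p = 0.0569 to 0.0793). Between the TIL groups 1 other of the 11 was called, Cd14, which was higher in Tim-3+ TIL (limma adjusted p = 0.00778). It read 4.83 to 5.52 on the Tim-3+ arrays and 4.29 to 4.36 on the Tim-3- arrays, and its means were below 5.71 in every group. The Cd14 call was lost within array set B, defined below (0.85, limma adjusted p = 0.0726). The log2 of the summed intensity of 7 B cell markers was 7.92 to 7.97 in Tim-3+ TIL, 8.00 to 8.09 in Tim-3- TIL and 9.34 to 9.70 in naive cells, with Ms4a1 and Pax5 below 5.71 in every group and Cd79b the brightest. That of 8 melanocyte markers was 8.41 to 10.32, 8.76 to 9.46 and 8.82 to 9.21 in the same order. Tyr and Mitf were below 5.71. Against naive cells, 5 of the 8 were higher and 1 lower in Tim-3+ TIL, and 2 higher and 1 lower in Tim-3- TIL. Pmel, brightest in naive cells, was lower in both. Dct, below 5.71 in naive cells, rose by 2.92 in Tim-3+ TIL (limma adjusted p = 0.000449). It rose by 2.24 in Tim-3- TIL (limma adjusted p = 0.00758, or 0.0515 without Tim-3- replicate 3). Of the 6 Tim-3+ calls, 5 changed with the array sets. None of the 8 was called between the TIL groups. The log2 sum of 5 NK cell markers, in the same order, was 10.95 to 11.27, 10.92 to 11.18 and 8.80 to 9.13. Ncr1 and Tyrobp were below 5.71 in every group. Eomes was at 9.82 ± 0.19 in Tim-3+ TIL, 10.79 ± 0.07 in Tim-3- TIL and 8.61 ± 0.15 in naive cells. Klre1 was at 9.74 ± 0.36, 8.12 ± 0.60 and 4.52 ± 0.48. Between the TIL groups 3 of the 5 were higher in Tim-3+ TIL, among them Klre1 (1.62), and 1, Eomes, was lower (-0.97). Of all genes, 7.77% were higher and 5.77% lower. The log2 sum of 5 CD4 and regulatory T cell markers, again in that order, was 10.92 to 11.32, 11.21 to 11.37 and 8.92 to 9.16. Within the last list Ikzf2 was the brightest, and Foxp3, at 6.93 ± 0.16 in Tim-3+ TIL, 7.94 ± 0.09 in Tim-3- TIL and 7.09 ± 0.18 in naive cells, was lower in Tim-3+ than in Tim-3- TIL (limma adjusted p = 0.000107) and higher in Tim-3- TIL than in naive cells (0.85). The Foxp3 change of Tim-3+ TIL against naive cells was not called (-0.16, limma adjusted p = 0.291). Cd4, of the same list, averaged 7.50 (Tim-3+), 7.34 (Tim-3-) and 6.51 (naive). It was called higher than in naive cells for the Tim-3+ group (0.99, limma adjusted p = 8.53e-06). The Tim-3- group had a called rise too (0.83, limma adjusted p = 0.000148). No call was made for Cd4 between the TIL groups (0.16, limma adjusted p = 0.531). The part of the cells that these marker lists stand for in the values of the 7 genes was not tested. Within groups the arrays fell into array sets A (Tim-3+ 1 and 2, Tim-3- 1, naive 1 and 2) and B (the rest), which no label names. Over all genes, the SD of the difference between a pair of arrays of 1 group was 0.234 to 0.301 within a set and 0.337 to 0.412 across sets. The sets were chosen with earlier results of these data known, so this spread is no independent test of them.

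In Tim-3+ TIL, 4 of the 7 genes were lower than in Tim-3- TIL and none was higher: Zfp36l1, Zc3h12a, Zc3h12d and Rc3h1. Of all 18193 genes 13.5% were called in this comparison, 7.77% higher and 5.77% lower. The median change of the 7 was -0.66, against 0.01 for all genes. Against naive cells, Tim-3+ TIL had lower Zfp36, Zfp36l1, Rc3h1 and Rc3h2 and higher Zc3h12a, with 41.5% of all genes called, 21.4% lower and 20.1% higher. Tim-3- TIL had higher Zc3h12a and Zc3h12d and lower Rc3h2 than naive cells, with 34.4% of all genes called, 16.1% higher and 18.3% lower. No array of one group reached into the range of the other for 5 of the 7 genes between the TIL groups (22.7% of all genes), for 5 between Tim-3+ TIL and naive cells (37.3%) and for 4 between Tim-3- TIL and naive cells (35.1%). The medians of the 7 were -0.46 for Tim-3+ TIL against naive cells and -0.11 for Tim-3- TIL against naive cells, beside -0.07 and -0.06 for all genes. Because these are bulk samples, fewer cells that express a gene and less of its RNA per cell cannot be told apart.

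**Figure D1:**
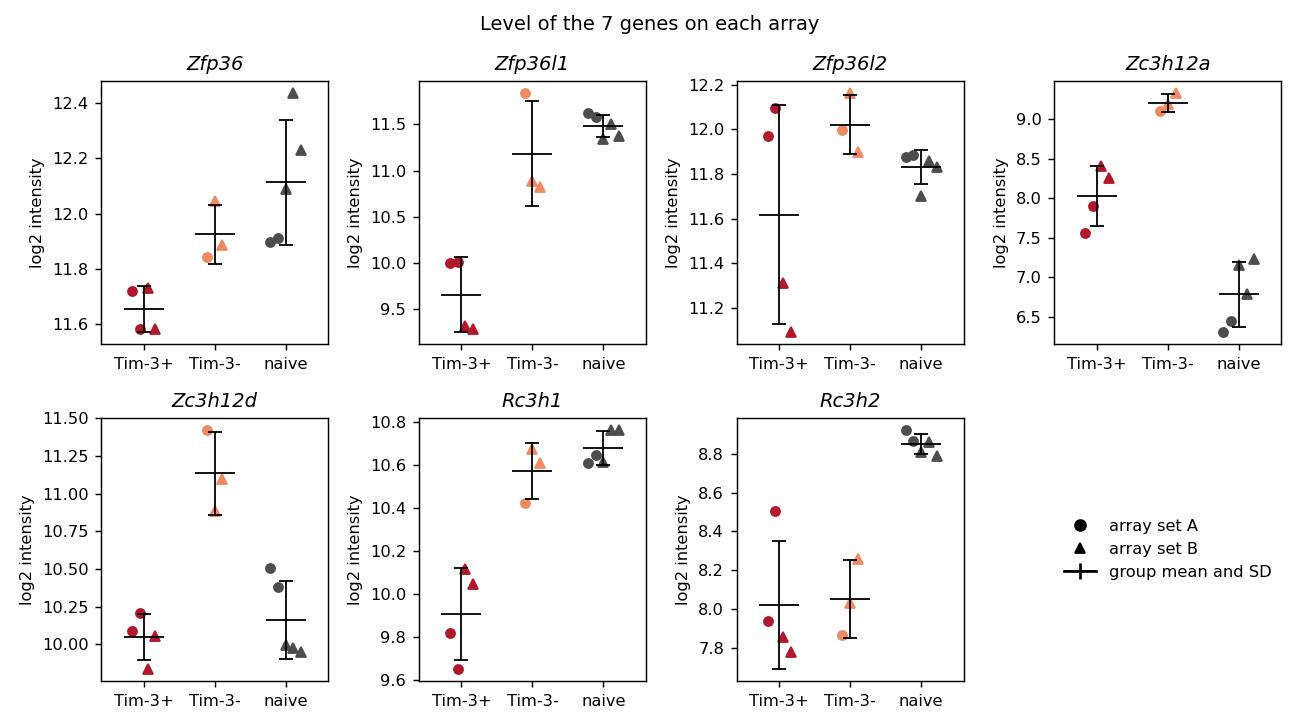
Log2 intensity of the 7 genes on each of the 12 arrays, with 1 panel per gene, the groups Tim-3+, Tim-3- and naive from left to right, circles for array set A, triangles for array set B, and bars for the group mean and SD; each panel has its own vertical range. Zfp36l1 lay between 9.28 and 10.01 on the 4 Tim-3+ arrays and above 10.8 on all others, and Zc3h12a stood highest on the 3 Tim-3- arrays.

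**Figure D2:**
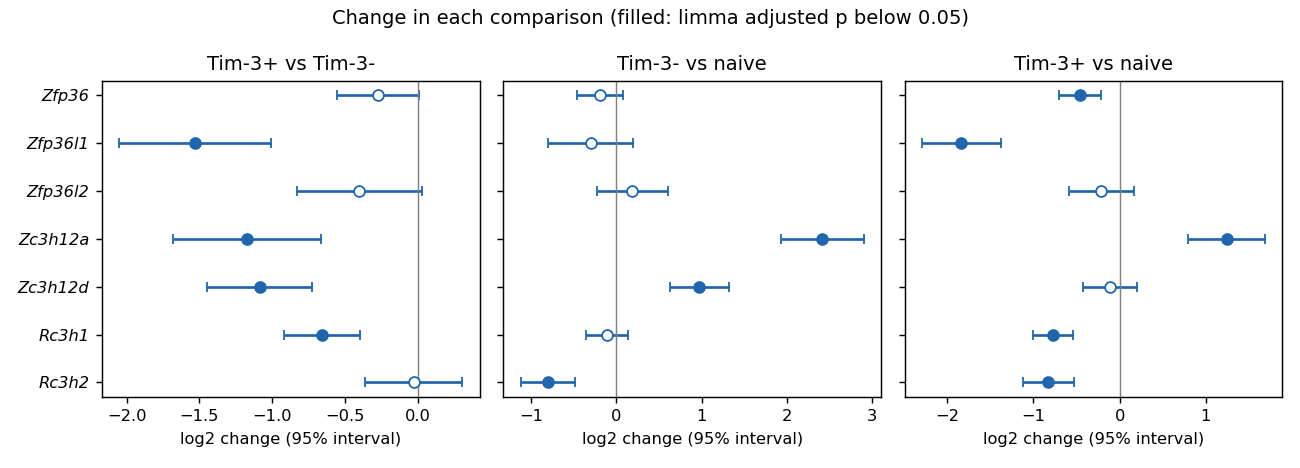
Log2 change of each gene with its 95% interval in the 3 comparisons, filled where the adjusted p was below 0.05; each panel has its own horizontal range. The filled points of 4 genes lie left of 0 between the TIL groups, and Zc3h12a lies right of 0 in both comparisons with naive cells.

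Among the AU-rich element binders, Zfp36l1 changed most. It read 10.002, 10.009, 9.32 and 9.28 on the Tim-3+ arrays, 11.84, 10.89 and 10.83 on the Tim-3- arrays, and 11.62, 11.58, 11.34, 11.51 and 11.38 on the naive arrays. Every Tim-3+ array lay below every other array, while the Tim-3- arrays straddled the naive ones, with 1 above them and 2 below. The level was 2.89-fold lower in Tim-3+ than in Tim-3- TIL (change -1.53 ± 0.24, limma adjusted p = 0.000685), and 1.86% of all genes had a larger change in either direction. Against naive cells it was 3.56-fold lower in Tim-3+ TIL (-1.83 ± 0.21, limma adjusted p = 7.09e-06). The change between the TIL groups held within both array sets, at -1.84 in set A and -1.55 in set B. The Tim-3- level did not pass the test against naive cells (-0.30 ± 0.23, limma adjusted p = 0.358), and here 1 array decided the call. Without Tim-3- replicate 1 the change was -0.63 with a limma adjusted p of 0.0257, and within set B, which lacks that array, it was -0.55 with 0.00304. The second Zfp36l1 probe set gave changes of -1.85 between the TIL groups, -1.77 in Tim-3+ TIL against naive cells and 0.08 in Tim-3- TIL against naive cells.

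Zfp36, the founding member that encodes tristetraprolin, is also an immediate early gene. It read 11.72, 11.58, 11.73 and 11.58 on the Tim-3+ arrays, 11.84, 12.05 and 11.89 on the Tim-3- arrays, and 11.90, 11.91, 12.09, 12.44 and 12.23 on the naive arrays. The Tim-3+ arrays were the lowest 4 of the 12, by a small margin, and the other groups overlapped. Zfp36 fell in Tim-3+ TIL relative to naive cells by 1.37-fold (-0.46 ± 0.11, limma adjusted p = 0.00499), a call that was lost within array set A (-0.25, adjusted p = 0.147). The change between the TIL groups was -0.27 ± 0.13 (limma adjusted p = 0.225), and that of Tim-3- TIL against naive cells was -0.19 ± 0.13 (limma adjusted p = 0.285). Genes known to respond early to stimulation or to tissue dissociation, listed without Zfp36, were mostly higher in TIL: of 24 measured, 15 were higher and 6 lower in Tim-3+ TIL, and 16 were higher and 2 lower in Tim-3- TIL, than in naive cells. Of all genes, 20.1% were higher and 21.4% lower in Tim-3+ TIL, and 16.1% higher and 18.3% lower in Tim-3- TIL. The summed level of the 24 was 15.61 to 15.75 in Tim-3+ TIL, 15.82 to 15.97 in Tim-3- TIL and 15.01 to 15.20 in naive cells on the log2 scale, and the part of tissue digestion in the values of the 7 genes was not tested.

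Zfp36l2, which with Zfp36l1 is known for restraining proliferation during lymphocyte development, was not called in any comparison. It read 11.97, 12.10, 11.31 and 11.09 on the Tim-3+ arrays, 12.00, 12.16 and 11.90 on the Tim-3- arrays, and 11.88, 11.88, 11.70, 11.86 and 11.83 on the naive arrays. The Tim-3+ arrays split by array set, with the 2 of set A at the level of Tim-3- TIL and the 2 of set B below all other arrays. The change was -0.40 ± 0.20 between the TIL groups (limma adjusted p = 0.243), with -0.83 within set B (adjusted p = 0.00689) and 0.04 within set A (0.916). Against naive cells it was -0.21 ± 0.18 in Tim-3+ TIL (limma adjusted p = 0.370), with -0.59 within set B (adjusted p = 0.00563), and 0.19 ± 0.19 in Tim-3- TIL (limma adjusted p = 0.493). None of its 3 probe sets passed the threshold.

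Zc3h12a, encoding Regnase-1, ordered the groups as Tim-3- above Tim-3+ above naive. It read 7.56, 7.90, 8.41 and 8.25 on the Tim-3+ arrays, 9.10, 9.19 and 9.33 on the Tim-3- arrays, and 6.31, 6.45, 7.15, 6.79 and 7.24 on the naive arrays. The 3 groups did not overlap. The level was 2.26-fold lower in Tim-3+ than in Tim-3- TIL (-1.17 ± 0.24, limma adjusted p = 0.00396). It was 2.37-fold higher in Tim-3+ TIL than in naive cells (1.24 ± 0.21, limma adjusted p = 0.000210) and 5.34-fold higher in Tim-3- TIL than in naive cells (2.42 ± 0.23, limma adjusted p = 1.36e-06), where 2.42% of all genes changed by more. The change between the TIL groups was -1.37 within array set A and -0.93 within set B, both past the threshold. A second, dimmer probe set also rose against naive cells, by 0.51 in Tim-3+ TIL (limma adjusted p over all 45037 probe sets 0.0310) and 0.91 in Tim-3- TIL (0.00184), but its change between the TIL groups was -0.40 and was not called (0.252).

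Zc3h12d, encoding Regnase-4, stood higher in Tim-3- TIL than in either other group. It read 10.09, 10.21, 9.84 and 10.06 on the Tim-3+ arrays, 11.43, 10.88 and 11.10 on the Tim-3- arrays, and 10.51, 10.38, 9.997, 9.98 and 9.95 on the naive arrays. All Tim-3- arrays lay above all others, and the Tim-3+ arrays overlapped the naive ones. The level was 2.12-fold lower in Tim-3+ than in Tim-3- TIL (-1.09 ± 0.17, limma adjusted p = 0.000539) and 1.97-fold higher in Tim-3- TIL than in naive cells (0.97 ± 0.16, limma adjusted p = 0.000249). The change of Tim-3+ TIL against naive cells was -0.11 ± 0.15 with a 95% interval of -0.43 to 0.20 (limma adjusted p = 0.581). Both calls held within each array set.

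Rc3h1, encoding Roquin-1, was lowest in Tim-3+ TIL. It read 9.82, 9.65, 10.12 and 10.05 on the Tim-3+ arrays, 10.42, 10.68 and 10.61 on the Tim-3- arrays, and 10.61, 10.65, 10.61, 10.76 and 10.76 on the naive arrays. The Tim-3+ arrays were the lowest 4, and the Tim-3- and naive arrays overlapped. The level was 1.58-fold lower in Tim-3+ than in Tim-3- TIL (-0.66 ± 0.12, limma adjusted p = 0.00218) and 1.71-fold lower in Tim-3+ TIL than in naive cells (-0.77 ± 0.11, limma adjusted p = 3.99e-05). The change of Tim-3- TIL against naive cells was -0.11 ± 0.12, with a 95% interval of -0.36 to 0.14 (limma adjusted p = 0.520).

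Rc3h2, encoding Roquin-2, gave a different answer from different probe sets. On its brightest probe set it read 7.94, 8.51, 7.86 and 7.78 on the Tim-3+ arrays, 7.86, 8.03 and 8.26 on the Tim-3- arrays, and 8.92, 8.87, 8.81, 8.86 and 8.79 on the naive arrays. Both TIL groups lay below the naive arrays and overlapped each other. On it, Rc3h2 was 1.78-fold lower in Tim-3+ TIL (-0.83 ± 0.14, limma adjusted p = 0.000201) and 1.74-fold lower in Tim-3- TIL (-0.80 ± 0.15, limma adjusted p = 0.000768) than in naive cells, and the TIL groups differed by -0.03 ± 0.16 (limma adjusted p = 0.943). Of the other 6 probe sets, 1426924_at was also lower in both TIL groups, with changes of -0.81 for Tim-3+ and -0.42 for Tim-3- TIL, and lower in Tim-3+ than in Tim-3- TIL, with a change of -0.40 (limma adjusted p over all probe sets 0.0380). In contrast, 1420144_x_at was higher in both, by 0.65 in Tim-3+ TIL (0.000896) and 0.86 in Tim-3- TIL (0.000280). The remaining 4 were not called, and which probe sets report the Rc3h2 mRNA was not tested.

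**Figure D3:**
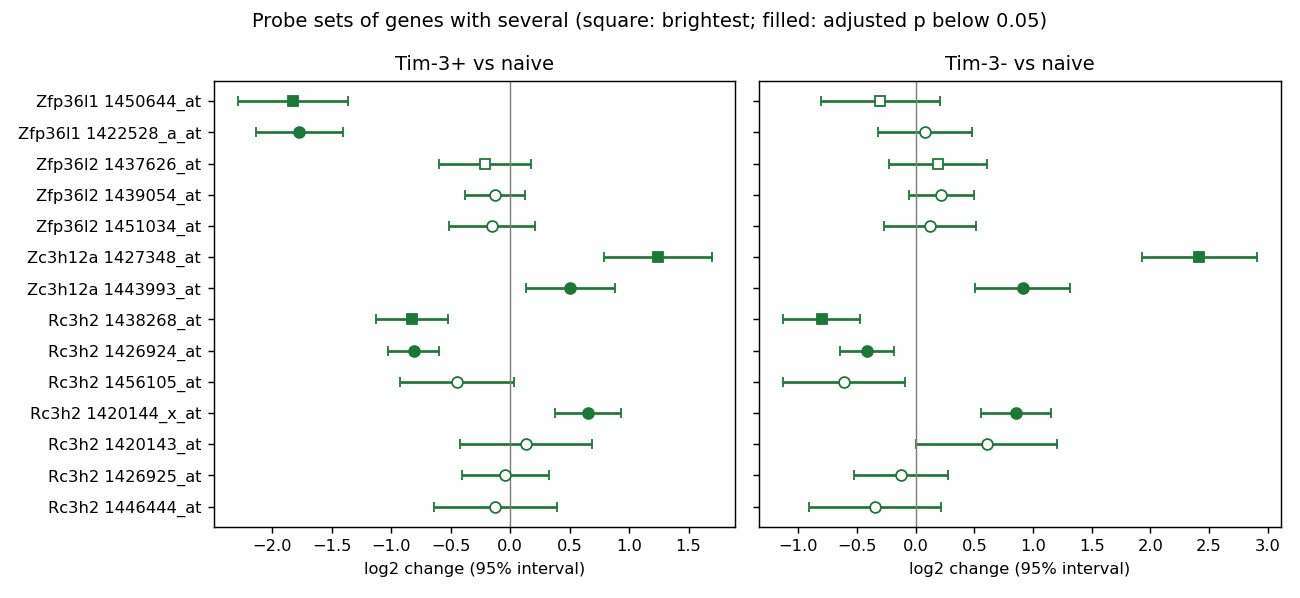
Log2 change against naive cells, with 95% interval, of each probe set of the 4 genes that have several, for Tim-3+ TIL on the left and Tim-3- TIL on the right; squares mark the brightest probe set of a gene and filled symbols an adjusted p below 0.05 over all probe sets. The probe sets of Zfp36l1, Zfp36l2 and Zc3h12a lie close together or on the same side of 0 in Tim-3+ TIL, while those of Rc3h2 run from -0.83 to 0.65.

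The 250 bases before the start that RefSeq's promoter table uses are shown for the 4 genes that were lower in Tim-3+ than in Tim-3- TIL. They were taken from RefSeq on GRCm38.p6, which had entries for 6 of the 7 genes (not Zfp36l2). Each is written from its far end to the last base before the start, and capitals mark the Krüppel-like factor motif CACGCCC on either strand. The regions are chr12:80113014-80113263 on the minus strand for Zfp36l1, chr4:125127882-125128131 on the minus strand for Zc3h12a, chr10:7832220-7832469 on the plus strand for Zc3h12d, of which 147 bases lie inside the gene's own RefSeq record, and chr1:160906161-160906410 on the plus strand for Rc3h1.
Zfp36l1: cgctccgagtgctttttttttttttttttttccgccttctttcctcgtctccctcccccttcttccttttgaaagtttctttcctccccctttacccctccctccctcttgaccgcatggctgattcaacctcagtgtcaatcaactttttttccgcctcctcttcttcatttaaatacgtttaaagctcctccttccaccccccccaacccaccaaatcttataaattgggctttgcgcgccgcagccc
Zc3h12a: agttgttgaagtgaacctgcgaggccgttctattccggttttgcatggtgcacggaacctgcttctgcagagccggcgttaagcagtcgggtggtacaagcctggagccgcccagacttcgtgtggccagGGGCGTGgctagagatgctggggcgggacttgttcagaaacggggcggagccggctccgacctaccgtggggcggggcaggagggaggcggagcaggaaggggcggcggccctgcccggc
Zc3h12d: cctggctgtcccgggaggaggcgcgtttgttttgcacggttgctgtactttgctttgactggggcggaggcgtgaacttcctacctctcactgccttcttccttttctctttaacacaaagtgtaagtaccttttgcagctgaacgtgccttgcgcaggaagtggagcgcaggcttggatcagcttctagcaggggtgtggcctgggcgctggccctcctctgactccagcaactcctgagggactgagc
Rc3h1: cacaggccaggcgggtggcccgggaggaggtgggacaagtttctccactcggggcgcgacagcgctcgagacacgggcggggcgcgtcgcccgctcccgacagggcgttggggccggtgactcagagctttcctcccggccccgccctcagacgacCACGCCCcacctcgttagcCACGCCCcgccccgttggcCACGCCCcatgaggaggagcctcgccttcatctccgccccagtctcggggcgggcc

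The 4 promoters shared little of these letters. The Rc3h1 promoter held CACGCCC 3 times, in evenly spaced copies whose far ends lay 94, 75 and 56 bases before the start, and 0.213% of 32851 RefSeq promoters of the same length held 3 or more copies. G and C make up 74.0% of that promoter and all but 1 letter of the motif. Zc3h12a had 1 copy, and so did Zfp36, while 7.55% of all promoters had at least 1. Zfp36l1 and Zc3h12d had none. The AP-1 motif TGANTCA occurred 1 time each before Zfp36l1 and Rc3h1 (6.75% of all promoters), and the TCF motif TCAAAG 1 time before Zc3h12d (13.8%). The NFAT core TGGAAA, the RUNX motif TGTGGT and the NF-kappaB motif GGGNNTTCC were found in none of the 6 regions searched, on either strand, of which that of Rc3h2 lies wholly inside the gene's record. Motifs were not allowed to differ by any letter, none of those found overlapped another, and a match describes the letters only.

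Among genes of the deadenylation machinery, 2 of 10 CCR4-NOT subunits and 3 of 9 adaptors and other deadenylation genes were called between the TIL groups, beside 13.5% of all genes. Of the 10 measured CCR4-NOT subunits, Cnot9 was higher (0.55, limma adjusted p = 0.0324) and Cnot6l, a catalytic subunit, lower (-0.39, limma adjusted p = 0.0449) in Tim-3+ than in Tim-3- TIL, but neither call was stable. That of Cnot9 was lost without Tim-3+ replicate 1 or 2 or Tim-3- replicate 2 or 3 (limma adjusted p = 0.0723 to 0.150), and that of Cnot6l without any of 10 of the 12 arrays (0.0518 to 0.133). Among the 9 adaptors and other deadenylation genes, 3 fell and none rose. Tob1, an antiproliferative adaptor that links CCR4-NOT to mRNAs, read 7.65, 7.78, 7.93 and 7.46 on the Tim-3+ arrays, 8.70, 8.68 and 8.57 on the Tim-3- arrays, and 7.21, 7.33, 7.24, 7.51 and 7.46 on the naive arrays. The Tim-3- arrays were the highest 3, with changes of -0.94 ± 0.12 between the TIL groups (limma adjusted p = 0.000130) and 1.30 ± 0.12 in Tim-3- TIL against naive cells. Its paralogue Tob2 changed by -0.76 ± 0.16 between the TIL groups and by 0.76 ± 0.15 in Tim-3- TIL against naive cells. Pan3, a subunit of the other deadenylase, was the third (-0.52, limma adjusted p = 0.00925), a call lost within array set B (-0.33, adjusted p = 0.146).

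Decapping and exosome genes were called more often against naive cells than between the TIL groups, as all genes were (41.5% for Tim-3+ TIL and 34.4% for Tim-3- TIL against naive cells, 13.5% between the TIL groups). Of 10 genes of decapping and decay from the cap end, 7 were lower and none higher in Tim-3+ TIL than in naive cells, with a median of -0.51, and 5 were lower and 1 higher in Tim-3- TIL. Dcp2, the decapping enzyme, changed by -1.18 against naive cells in Tim-3+ TIL and by -1.18 in Tim-3- TIL. Xrn1, the exonuclease that follows it, changed by -0.59 in Tim-3+ TIL and by -0.78 in Tim-3- TIL. Between the TIL groups 1 of the 10 was called, Pnrc1 at -0.40, which turned to 0.23 with the median of its probe sets and was lost without Tim-3- replicate 2 (limma adjusted p = 0.0841). Of 11 exosome genes, 3 were higher and 3 lower in Tim-3+ TIL, and 1 was higher and 5 lower in Tim-3- TIL, than in naive cells. Between the TIL groups Exosc8 (0.40) and Dis3 (0.57) were higher in Tim-3+ TIL, with both calls lost without Tim-3- replicate 2 (limma adjusted p = 0.0512 and 0.173) and that of Dis3 also without Tim-3+ replicate 1 or 2 or Tim-3- replicate 3.

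Among 7 other AU-rich element binders, Celf1, which promotes decay of GU-rich mRNAs, stood apart. It read 9.50, 9.59, 9.56 and 9.62 on the Tim-3+ arrays, 10.34, 10.23 and 10.28 on the Tim-3- arrays, and 10.48, 10.60, 10.66, 10.79 and 10.69 on the naive arrays. The 3 groups did not overlap, and the changes were -0.72 ± 0.10 between the TIL groups (limma adjusted p = 0.000172) and -1.08 ± 0.08 in Tim-3+ TIL against naive cells. The other 6, which include Elavl1, encoding the stabilising protein HuR, and Hnrnpd, were not called between the TIL groups, with changes of -0.05 to 0.16. Of all genes, 13.5% were called in this comparison. With the median of its probe sets Elavl1 instead was lower in Tim-3+ than in Tim-3- TIL (-0.51, limma adjusted p = 0.0241).

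Of 14 measured partners and upstream regulators, 3 were higher and none lower in Tim-3+ than in Tim-3- TIL (7.77% and 5.77% of all genes). Zc3h12c, encoding the related endonuclease Regnase-3, ran opposite to Zc3h12a and Zc3h12d between the TIL groups. It read 7.04, 7.12, 7.18 and 7.41 on the Tim-3+ arrays, 5.99, 5.85 and 6.01 on the Tim-3- arrays, and 3.12, 3.16, 2.28, 3.09 and 2.95 on the naive arrays. The groups did not overlap, and the change between the TIL groups was 1.24 ± 0.18 (limma adjusted p = 0.000406). The naive level was below 5.71, so the changes against naive cells, 4.27 for Tim-3+ TIL and 3.03 for Tim-3- TIL, are at best lower bounds. Mapkapk2, encoding the kinase MK2 that phosphorylates and inactivates ZFP36, was at 8.16 ± 0.06 in Tim-3+ TIL, 7.53 ± 0.27 in Tim-3- TIL and 6.19 ± 0.32 in naive cells. It was higher by 1.97 in Tim-3+ and 1.34 in Tim-3- TIL than in naive cells, and its call between the TIL groups (0.63, limma adjusted p = 0.0284) was lost without any of 5 TIL arrays (0.0596 to 0.137). Upf1, the helicase that works with Regnase-1, was the third (0.36, limma adjusted p = 0.0221), and its call was likewise lost without any of 5 TIL arrays (0.0505 to 0.0894). Nufip2, a cofactor of the Roquins, was lower than in naive cells, with changes of -0.87 for Tim-3+ TIL and -0.82 for Tim-3- TIL.

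The known targets of Regnase-1 and the Roquins, taken from general knowledge, included many that were higher in TIL than in naive cells. Of 16 measured, 7 were higher and none lower in Tim-3+ TIL (median 0.25), and 11 were higher and none lower in Tim-3- TIL (median 1.27). Of all genes, 20.1% were higher and 21.4% lower in Tim-3+ TIL, and 16.1% higher and 18.3% lower in Tim-3- TIL. Tnfrsf4, encoding the costimulatory receptor OX40, was higher by 3.76 in Tim-3+ and 4.25 in Tim-3- TIL, Icos by 2.20 and 2.27, and Irf4 by 2.33 and 2.59. Between the TIL groups 4 targets were lower and none higher in Tim-3+ TIL (5.77% and 7.77% of all genes): Il2, Nfkbiz, Nfkbid and Tnfrsf4. Nfkbiz, encoding the nuclear NF-kappaB regulator IκBζ, read 8.61, 9.16, 9.10 and 8.99 on the Tim-3+ arrays, 10.94, 10.59 and 10.56 on the Tim-3- arrays, and 8.79, 8.69, 9.17, 9.68 and 9.46 on the naive arrays. The Tim-3- arrays were the highest 3, with a change of -1.73 ± 0.22 between the TIL groups (limma adjusted p = 0.000119). Nfkbiz was called higher in Tim-3- TIL than in naive cells on its brightest probe set (limma adjusted p = 5.53e-05). With the median of its probe sets that change was 6.0e-06 and was not called (limma adjusted p = 0.99998). Il2 changed by -2.62 ± 0.28 between them (limma adjusted p = 2.22e-05), with a Tim-3+ level of 4.59 ± 0.31 that may lie at background, and Nfkbid by -0.80. The call of Tnfrsf4 (-0.49) was lost within each array set and without Tim-3- replicate 3 (limma adjusted p = 0.0603).

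The known targets of the ZFP36 family went both ways between the TIL groups. Of 19 measured, 3 were higher (Ccl3, Ccl4 and Vegfa) and 4 lower (Il2, Il3, Csf2 and Bcl2) in Tim-3+ than in Tim-3- TIL, with a median of 0.04. Of all genes, 7.77% were higher and 5.77% lower. Vegfa was at 6.32 ± 0.21 in Tim-3+ TIL and at 5.46 ± 0.24 in Tim-3- TIL, a level below 5.71 that may lie at background. The call of Bcl2 (-0.54) was lost without Tim-3+ replicate 1 or 3 or Tim-3- replicate 2 (limma adjusted p = 0.0545 to 0.112). It was also lost with the median of its probe sets (-0.22, limma adjusted p = 0.665) and with the most variable probe set (-0.74, limma adjusted p = 0.420). Ccl3, a chemokine of effector T cells, read 12.85, 13.00, 11.64 and 11.90 on the Tim-3+ arrays, 9.67, 7.71 and 7.75 on the Tim-3- arrays, and 4.52, 4.02, 5.30, 4.76 and 5.20 on the naive arrays. Its change between the TIL groups was 3.98 ± 0.47 (limma adjusted p = 5.86e-05). Ifng was at 11.85 ± 0.24 in Tim-3+ TIL, 10.67 ± 0.47 in Tim-3- TIL and 3.75 ± 0.79 in naive cells. Its change between the TIL groups, 1.18, was just short of the threshold (limma adjusted p = 0.0536). It was called under several alternatives, such as array weights (1.35, limma adjusted p = 0.0119) and the median of its probe sets (1.18, 0.0480). Against naive cells, 6 targets were higher and 3 lower in Tim-3+ TIL (20.1% and 21.4% of all genes). In Tim-3- TIL 10 were higher and 3 lower (16.1% and 18.3% of all genes). The lower ones were Myc, Bcl2 and Notch1 in both, although the Bcl2 call in Tim-3- TIL (-0.46) was lost without Tim-3- replicate 3 (limma adjusted p = 0.0911). Calls of 5 of the 13 targets in Tim-3- TIL changed without some single array, and Myc, a driver of cell growth, changed by -1.88 in Tim-3+ TIL and by -1.99 in Tim-3- TIL. Il6, Il10, Il17a, Il3, Cxcl2 and Ptgs2 had group means below 5.71 throughout, so calls on them rest on dim values, and Il2, Tnf, Il6 and Ier3 stand in both target lists.

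**Figure D4:**
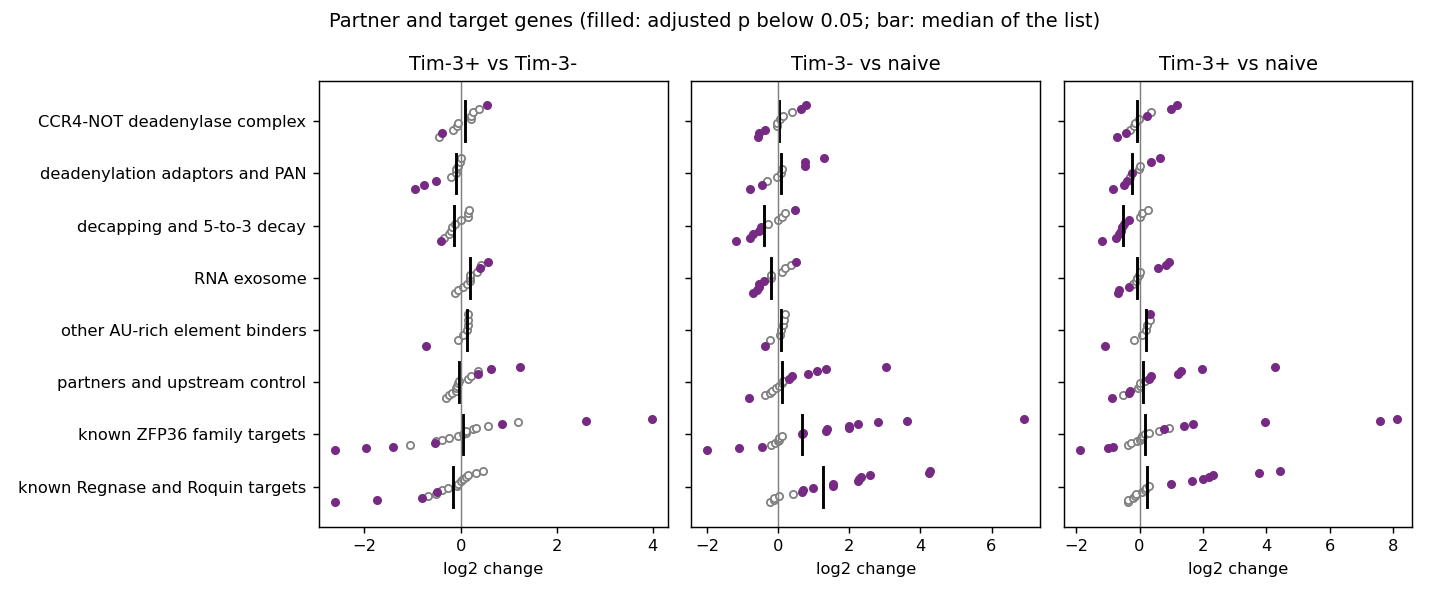
Log2 change of each measured gene in 8 lists of decay machinery, partners and known targets for the 3 comparisons, filled where the adjusted p was below 0.05, with a vertical bar at the list's median; each panel has its own horizontal range. The list of Regnase and Roquin targets has its median at -0.16 between the TIL groups, at 1.27 in Tim-3- TIL against naive cells and at 0.25 in Tim-3+ TIL against naive cells.

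The genes whose profile over the 12 arrays was nearest, by the root mean square difference of log2 values each centred on its own mean, differed from member to member. The nearest to Zfp36l1 was Arhgef3 at 0.24 over a range of 2.56 for Zfp36l1, then Oas3 and Purg. Pfn2, encoding a profilin, was the nearest to Zc3h12a at 0.16 over a range of 3.02, then Ptprk and Cldnd1. For Zc3h12d it was Stim2, a calcium sensor of the endoplasmic reticulum, at 0.11 over a range of 1.59, followed by Cxcl11, whose group means were below 5.71, and Il18r1. For Rc3h1 it was Nfatc3, a calcium-regulated transcription factor, at 0.11 over a range of 1.11, then Tmem243 and Inpp5a. Zfp36 was nearest to Herc1, Rsbn1 and Cox7a2l, and Rc3h2 to Rhoh, Washc2 and Dnm2. These are descriptions of arrays that share groups and array sets.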

How the data were processed

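The authors deposited 1 table of normalized linear intensity values for 45101 probe sets on 12 arrays, made with RMA and the affy package per the submitters' processing notes (versions: not given in the sources used here). Log2 was taken of each deposited value. By the array annotation, 34945 probe sets name a single gene; 932 name more than 1, 9160 name no gene and 64 are controls. The probe set with the highest mean over 12 arrays stood for each gene. limma 3.58.1 in R 4.3.3 fitted 3 group means over all 12 arrays with empirical Bayes moderation, two-sided, and was tested on simulated data. Python 3.11.15 with pandas 2.3.3 did the rest.

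The 7 genes, the gene lists, the array sets and the motifs were chosen with earlier results of these data known. Named were the 7 genes; for each with a call, its 3 nearest genes; up to 4 genes per decay or target list with the smallest adjusted p in a comparison; the sort markers; and the brightest markers of other cells, of which the text names some. Genes outside this rule, such as the dim markers of other cells, Hnrnpd, Elavl1, Csf2 between the TIL groups, Myc and the dim targets, were named after their values were seen. Cnot1, Pat1b and Zc3h12b are not analysed here. Samples with the same replicate number in Tim-3+ TIL and naive cells deviated together (correlations of 0.319, 0.186, 0.209 and 0.128), but not all did between the TIL groups (0.413, -0.131 and 0.268) or in Tim-3- TIL against naive cells (0.225, -0.150 and 0.144), and no label gives the numbers a meaning. Alternatives were another probe set or their median for a gene, a repeated quantile normalization or median centring, leaving out dim genes, moderation with a trend, array weights, the groups in the fit, the replicate number or array set as a block, each array set alone, and leaving out each array.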

Additional observations from a re-analysis of the deposited data

How the results depend on the processing

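Of 504 values of the 7 genes under 24 alternatives in each comparison, 485 kept their direction and their side of the threshold and 14 changed sign. Of these, 4 were called values, all of Rc3h2 against naive cells: with the median of its probe sets the change was 0.57 in Tim-3+ TIL (limma adjusted p = 0.00226) and 0.56 in Tim-3- TIL (0.00583), and with the most variable probe set 0.13 (0.709) and 0.60 (0.108). The other 10 were not called before or after: Rc3h2 between the TIL groups, with 0.0097 for the median of probe sets, 0.011 for the replicate block, 0.36 within array set A, and -0.19 to 0.074 in fits without 1 array, of which 3 were above 0; Zfp36l2 within set A (0.036 between the TIL groups, 0.15 in Tim-3+ TIL against naive cells); and Zfp36l1 in Tim-3- TIL against naive cells (0.24 within set A, 0.078 for the most variable probe set). The number of the 7 called stayed within 4 to 5 between the TIL groups, 4 to 6 in Tim-3+ TIL against naive cells and 2 to 4 in Tim-3- TIL against naive cells; leaving out each array gave 4 to 4, 5 to 5 and 3 to 4. With the replicate number as a block the counts were 4, 5 and 3 and no call of the 7 changed; the Zc3h12a changes were then -1.23, 1.35 and 2.58. Over all genes 2463 were called between the TIL groups, against 1590 within array set A, which holds 1 Tim-3- array whose spread is taken from the other groups. The calls of Zfp36, Zfp36l1 and Zfp36l2 that moved with the array sets are given above; the cause was not tested. Signal near background limits the changes of dim targets and of Zc3h12c against naive cells.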
